A study of Homo sapiens with 4 samples.

Results

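Keratins and vimentin are among the proteins of the cytoplasmic intermediate filaments. Of their genes, 9 (KRT7, KRT8, KRT10, KRT18, KRT19, KRT34, KRT80, KRT81 and VIM) were followed in KGN cells, a human line from an ovarian granulosa cell tumour. The members were all probe sets whose only gene symbol is one of these names. There were 14 such probe sets among the 41097 with a single symbol, and they read 7 of the 9 genes, out of 19775 genes in all. KRT81 had no probe set under its name in the annotation used here, and the probe set that carries the KRT34 symbol carries a second symbol as well, so neither gene has a value of its own. Of the 14 probe sets, 10 have a suffix (_s_at or _x_at) that marks probes shared between transcripts and 4 do not.

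Each group held 1 Affymetrix HG-U133 Plus 2.0 array, and all 4 cultures were transfected. The siNC and siNC+8Br-cAMP cells received 10 nM of a negative control siRNA, and the siYT and siYT+8Br-cAMP cells received siRNAs against YAP and TAZ, 5 nM of each. These are co-activators that the Hippo pathway holds back. At 48 h the medium was changed, and for the next 24 h the groups with 8Br-cAMP were kept in 0.5 mM of this cell-permeable cyclic AMP analogue. All values come from 1 cell line and have no replicate, so differences are given as sizes.

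Keratins assemble as pairs of a type I chain (KRT10, KRT18, KRT19 and KRT34 here) with a type II chain (KRT7, KRT8, KRT80 and KRT81). KRT8 with KRT18 is the pair of simple epithelia, KRT7 and KRT19 are found in ductal and other simple epithelia, KRT10 belongs to the differentiating epidermis, and KRT34 and KRT81 are hair keratins. Vimentin is a type III protein that forms filaments alone and is typical of mesenchymal cells. Granulosa cells form an epithelium that contains vimentin and, depending on the stage, KRT8 and KRT18. In RefSeq (GRCh38.p14, used only for gene order) KRT8 and KRT18 are neighbouring coding genes on chromosome 12, as are KRT7 and KRT80.

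The signal is a probe set intensity, with values below a floor of 62.6, the median of the whole table, set to that floor before log2 was taken. Where 4 values follow each other without further mention, they run in the order siNC, then siNC+8Br-cAMP, then siYT, then siYT+8Br-cAMP. The median intensity of an array was between 56.9 and 66.3. The siRNA targets were lower after knockdown, by log2 -1.92 and -1.76 for YAP1 and by -2.38 and -2.61 for WWTR1 (TAZ), without and with 8Br-cAMP. The siYT+8Br-cAMP array had a 3' to 5' signal ratio of 1.35 for ACTB, against 1.07 to 1.14 on the other arrays. The spread of a difference between probe sets of the same gene, used as a yardstick of measurement error, had an SD of 0.39 for knockdown without and 0.54 for knockdown with 8Br-cAMP. It was 0.37 for 8Br-cAMP with control siRNA and 0.53 for 8Br-cAMP after knockdown. Whether RNA quality had a part in the results that use the siYT+8Br-cAMP array was not tested.

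The labelled cell type was checked against fixed markers. Of 10 granulosa markers, 7 lay above the floor on all arrays, among them FOXL2, the granulosa transcription factor, at 659, 1470, 726 and 1765. FSHR, AMHR2 and NR5A1 lay below it on every array. Of 14 epithelial markers with a probe set, 8 lay below the floor on every array, including CDH1 (E-cadherin) and EPCAM. The summed signal of the list was 3259, 1671, 1952 and 1807. Most of it came from 1 gene, OCLN, at 2691, 1122, 1437 and 1173. Of 6 leukocyte and endothelial markers, 2 (VWF and CDH5) lay below the floor on every array, and PTPRC, CD3E and CD14 were above it on 1 or 2 arrays. PECAM1, an endothelial and leukocyte adhesion molecule, was above it on all, at 144, 162, 185 and 233. The summed signal of these genes was between 320 and 365. What part cells of these kinds had in the results was not tested. Of 11 mesenchymal markers, 9 lay above the floor on all arrays, among them CDH2, FN1, TWIST1 and ZEB1. SNAI1 was above it on 2 arrays and S100A4 on 3.

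Among the keratins, KRT18 was much lower on both knockdown arrays. KRT80 and, by 1 of its 4 probe sets only, KRT7 were lower after knockdown in the absence of 8Br-cAMP. KRT8 and, by its brightest probe set, KRT10 differed little. Vimentin differed by log2 0.11 after knockdown without 8Br-cAMP and by 0.59 with it. The 7 genes all lay above the floor on at least 1 array, and 6 of them on all 4, the exception being KRT19.

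**Figure D1:**
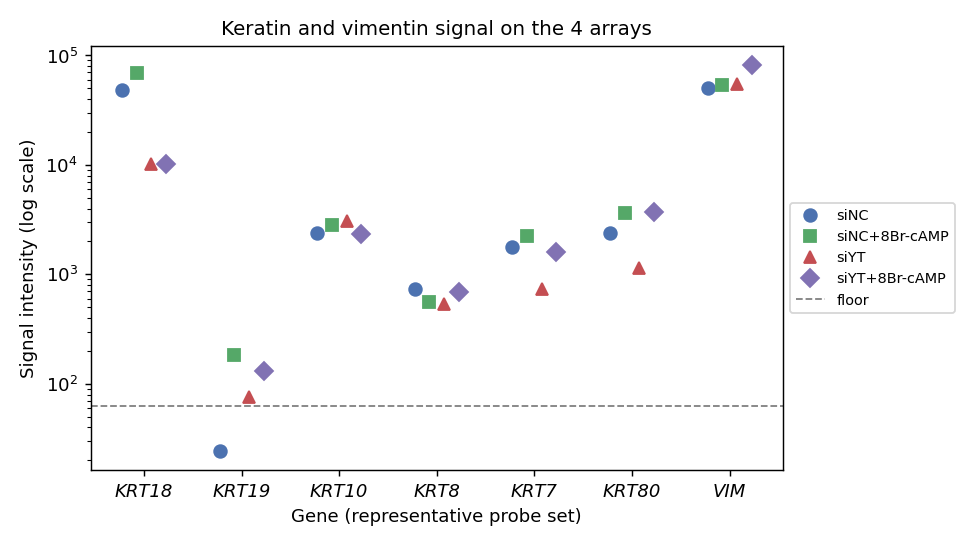
Signal intensity (log scale) of the representative probe set of each gene, the one with the highest mean, with 1 point for each of the 4 arrays and the floor of 62.6 as a dashed line. KRT18 falls into a high pair with control siRNA (48635 and 69798) and a low pair after knockdown (10099 and 10131), while the 4 VIM points lie between 50417 and 81427.

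KRT18, the type I chain of the simple epithelial pair, read 48635 on the siNC array, 69798 on siNC+8Br-cAMP, 10099 on siYT and 10131 on siYT+8Br-cAMP. Both knockdown arrays were far below both control arrays, and the knockdown arrays were nearly level. The knockdown difference was log2 -2.27 without 8Br-cAMP, or 4.82-fold lower, and -2.78 with it, or 6.89-fold lower. These are 5.85 and 5.18 times the yardstick SD. Among the 10795 genes that lay above the floor throughout, KRT18 ranked 73rd from the lowest without and 33rd with 8Br-cAMP. The difference between the knockdown differences was -0.52, within the yardstick SD of 0.60 for that quantity. 8Br-cAMP itself went with 1.44-fold more KRT18 signal with control siRNA (log2 0.52) and with a difference of log2 0.00 after knockdown. The probe set behind these values is of the shared _x_at kind, and KRT18 has processed pseudogenes, so a contribution of near-identical copies to the level cannot be told apart. In RNA from a whole culture, fewer cells with a transcript and less of it per cell cannot be told apart either.

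The 3 genes whose 4 values ran most like those of KRT18 were found among the 10795 genes by the largest deviation between log2 values, each centred on its own mean. The nearest was WWTR1, an siRNA target, with a deviation of at most 0.10 on any array. ADAM12, a metalloprotease, followed with 0.31, and CDK6, a cyclin-dependent kinase of the G1 phase, with 0.36. ADAM12 read 5519, 7171, 1488 and 1566, and CDK6 read 4322, 4802, 1023 and 989. With 4 arrays this is a description of likeness.

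KRT8, the type II partner of KRT18 and its genomic neighbour, read 736, 560, 537 and 694. No array stood out, and the control and knockdown values overlapped. The knockdown difference was log2 -0.45 without and 0.31 with 8Br-cAMP, or 1.17 and 0.58 times the yardstick SD. The KRT8 probe set is also of the _x_at kind and was the only one under its symbol. Side by side, the partners had knockdown differences of log2 -0.45 for KRT8 and -2.27 for KRT18 without 8Br-cAMP, and of 0.31 and -2.78 with it. Whether the genes differ in this was not tested.

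KRT7, a type II keratin, was read by 4 probe sets that did not run alike. The brightest read 1781, 2260, 729 and 1606, so that siYT was low and the other arrays were not. By it KRT7 was 2.44-fold lower after knockdown without 8Br-cAMP (log2 -1.29) and 1.41-fold lower with it (log2 -0.49). 8Br-cAMP went with a log2 difference of 0.34 with control siRNA and of 1.14, or 2.20-fold, after knockdown.

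Of the other KRT7 probe sets, the unique one (1558393_at) read 119, 95.2, 185 and 116. Its siYT value was the highest and not the lowest, and its knockdown difference was log2 0.64 without and 0.29 with 8Br-cAMP. A shared one (1558394_s_at) read 85.6, 147, 107 and 137, and the last (214031_s_at) lay below the floor on every array. The lower KRT7 signal in siYT thus rests on 1 of the 4 probe sets, of which the others were dim.

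KRT80, a type II keratin of broad epithelial distribution, read 2411, 3672, 1140 and 3699, from a unique probe set. The siYT array was the lowest, and the arrays with 8Br-cAMP were the highest and level with each other. Knockdown went with 2.11-fold less signal without 8Br-cAMP (log2 -1.08, or 2.79 times the yardstick SD). With 8Br-cAMP the difference was log2 0.01. 8Br-cAMP went with a difference of 0.61 with control siRNA and of 1.70 (3.24-fold) after knockdown, where KRT80 ranked 111th from the highest of 10795 genes. The difference between the knockdown differences, 1.09, was 1.82 times its yardstick SD of 0.60. KRT7 by its brightest probe set gave 0.80 for the same quantity, or 1.33 times the SD.

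**Figure D2:**
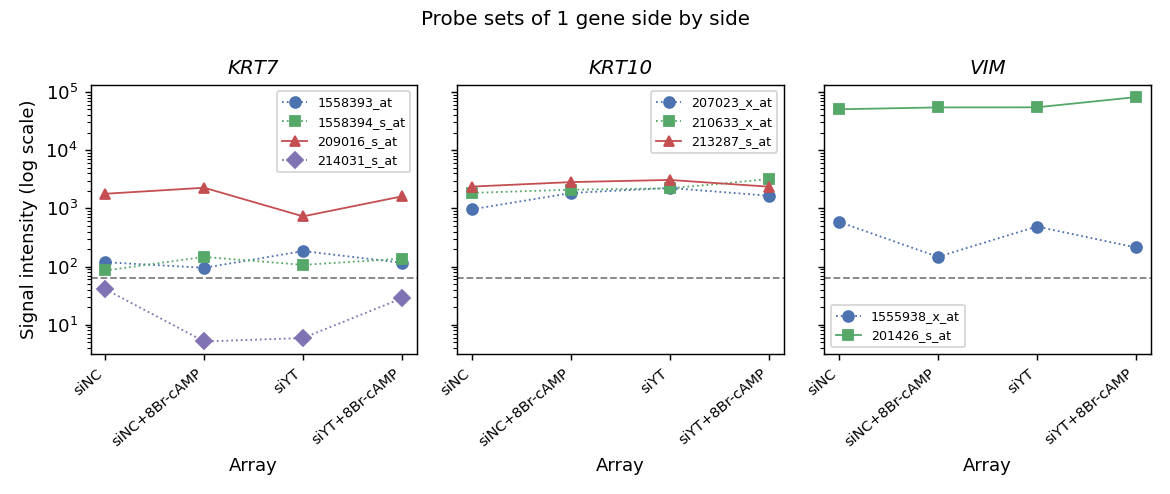
Signal intensity (log scale) of every probe set of KRT7, KRT10 and VIM on the 4 arrays, with the representative as a solid line, the others dotted and the floor of 62.6 dashed. The KRT7 dip in siYT (729) appears in 1 of 4 probe sets, and the dimmer VIM probe set is lower on both arrays with 8Br-cAMP (147 and 213) than without (585 and 487).

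KRT10, the type I keratin of the suprabasal epidermis, was read by 3 shared probe sets. The representative read 2367, 2826, 3078 and 2357, and no array stood apart. Its knockdown differences were log2 0.38 and -0.26, both within the yardstick SD. Of the other probe sets, 210633_x_at gave 0.26 and 0.60. The third, 207023_x_at, gave 1.22 and -0.16, from a siNC value of 964 that was the lowest of its 4.

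KRT19, a type I keratin without the usual tail domain, was close to the floor. Its probe set 201650_at read 24.4, 185, 75.6 and 130. The siNC value was below the floor, and 8Br-cAMP therefore went with at least 2.95-fold more signal with control siRNA. After knockdown it went with 1.72-fold more (log2 0.78), and knockdown went with at least 1.21-fold more signal without and 1.42-fold less with 8Br-cAMP. Its other probe set, 228491_at, lay below the floor on every array.

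For the hair keratins, 206969_at is the one probe set that carries the KRT34 symbol, and it carries that of LOC100653049 too. It read 1967, 668, 265 and 172. Every other array was below siNC, and the knockdown differences were log2 -2.89 without and -1.96 with 8Br-cAMP. Because of the second symbol, which gene this signal came from cannot be told apart, and it was left out of all counts.

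VIM, for vimentin, read 50417, 54231, 54457 and 81427 by its brightest probe set. The first 3 arrays were nearly level and the last was above them. The knockdown difference was log2 0.11 without and 0.59 with 8Br-cAMP, the latter 1.09 times the yardstick SD and on the array with the raised 3' to 5' ratio. 8Br-cAMP went with 0.11 and 0.58. A second, dimmer probe set (1555938_x_at) read 585, 147, 487 and 213. It was 3.98-fold lower with 8Br-cAMP in control cells and 2.29-fold lower after knockdown, a direction the brighter probe set does not have, while its knockdown differences were -0.26 and 0.54. The genes closest to the VIM pattern were DDX19A, an RNA helicase, ZNF137P, a zinc finger pseudogene near the floor, and NINJ1, a membrane adhesion protein, with deviations of at most 0.05 each.

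**Figure D3:**
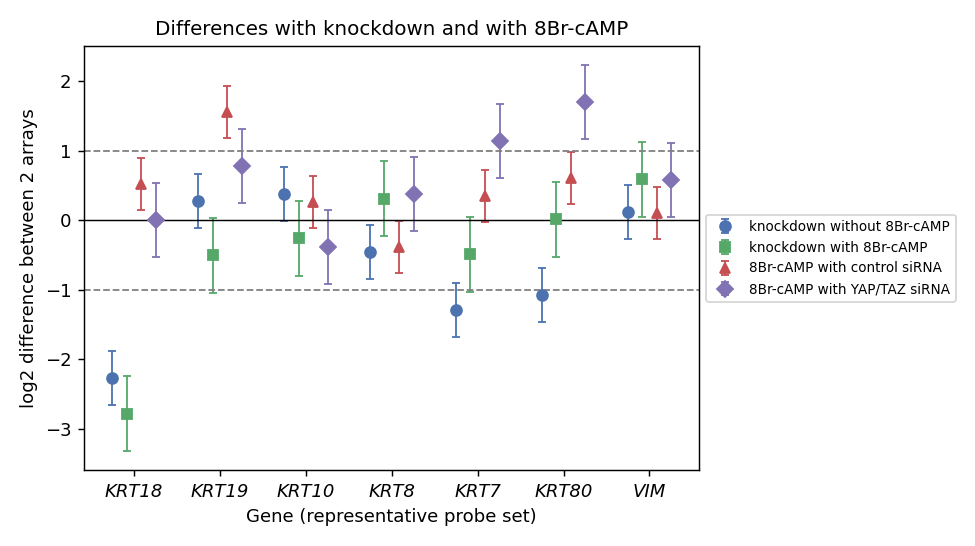
log2 differences of the representative probe sets in the 4 comparisons, where bars are 1 SD of that difference between probe sets of the same gene (0.37 to 0.54) and dashed lines mark 2-fold. The KRT18 knockdown points (-2.27 and -2.78) lie below those of the other genes, and KRT80 after knockdown has the highest 8Br-cAMP point measured above the floor on both arrays (1.70), as the KRT19 point of 1.56 is a lower bound.

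The members were chosen with earlier results of these data known. An excess over the share of all genes, here or for 8Br-cAMP, therefore tests nothing about them. Counted together, 3 of the 7 genes (KRT7, KRT18 and KRT80) were at least 2-fold lower after knockdown without 8Br-cAMP, where 6.05% of the 14427 genes compared were. When probe sets were averaged for each gene it was 2 of 7, without KRT7. None was 2-fold higher, against 7.30% of all genes. With 8Br-cAMP, 1 of 7 (KRT18) was 2-fold lower, against 9.48%, and 0 were higher, against 6.74%. KRT18 was the 1 gene of the 7 that was 2-fold lower in both comparisons, as were 2.81% of all genes, and 0 were higher in both, against 2.38%. The median difference of the 7 was log2 -0.45 without and -0.26 with 8Br-cAMP, beside 0.00 over all genes in each. Genes below the floor on both arrays of a comparison enter the shares and medians over all genes as 0. Of the 14427 genes, 10795 lay above the floor on all arrays, as did 6 of the 7 members. The 2 knockdown comparisons use different arrays.

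8Br-cAMP went with at least 2-fold more signal for 1 of the 7 genes with control siRNA (KRT19, near the floor), where 4.34% of all genes did so. After knockdown it did for 2 of 7 (KRT7 and KRT80), against 5.00%. When probe sets were averaged for each gene it was 1 of 7 after knockdown, without KRT7, and 0 with control siRNA. No gene of the 7 was 2-fold lower in either, against 5.22% and 9.88%. In both 8Br-cAMP comparisons 0 of the 7 were 2-fold higher, against 1.46% of all genes, and 0 lower, against 2.08%. The medians of the 7 were 0.34 and 0.58, beside 0.00 over all genes, which again include those below the floor on both arrays. These comparisons share an array with the knockdown comparisons, siYT among them, so a low siYT value enters both.

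An additive limma fit of knockdown and 8Br-cAMP over all 14427 genes has 1 residual degree of freedom and counts as error whatever the knockdown does differently with and without 8Br-cAMP. It called KRT18 lower after knockdown, at a mean log2 difference of -2.53 and a Benjamini-Hochberg adjusted p of 0.037, and 1.12% of all genes were called lower in this way. For KRT7 the adjusted p of this limma fit was 0.20 and for KRT80 0.47. None of the 7 was called higher after knockdown, against 0.658% of all genes. For 8Br-cAMP the fit called 0 of the 7, against 0.111% of all genes higher and 0.0277% lower, and the lowest adjusted p of limma was 0.18, for KRT19. At an unadjusted p under 0.05 that fit had KRT7 and KRT18 lower after knockdown, with 9.99% of all genes, and KRT19 and KRT80 higher with 8Br-cAMP, with 6.27%.

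A siYT signal at least 2-fold below each of the other 3 arrays, a pattern singled out after the KRT7 and KRT80 values were seen, was found in those 2 of the 7 genes and in 59 of the 14427 genes (0.409%). KRT7 by its brightest probe set was 2.20-fold and KRT80 2.11-fold below the next lowest array. On the other lists used here it was found in PKP2, ELF3 and INHBA, which encodes the subunit of activin A. INHBA read 17150, 31170, 5097 and 33512, so that siYT was 3.36-fold below the next lowest array. All 5 genes share the 1 siYT array.

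The other keratins were mostly dim. Of 38 further keratin genes with a probe set of their own symbol, 22 lay below the floor on every array and 2 lay above it on all 4. KRT15, a type I keratin of basal epithelial cells, read 585, 980, 1036 and 583. It was higher with either treatment alone than with neither or both, and the knockdown difference was log2 0.82 without and -0.75 with 8Br-cAMP. KRT33B, a hair keratin, was between 144 and 167 on all arrays. Of the 16 with some value over the floor, 0 were 2-fold lower or higher in both knockdown comparisons.

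Of 15 other intermediate filament genes, 11 lay above the floor on at least 1 array. LMNB1, for lamin B1 of the nuclear lamina, read 499, 294, 98.2 and 68.7. It was the 1 gene of the list whose decrease after knockdown passed 2-fold whether or not 8Br-cAMP was present. The knockdown difference was 5.08-fold in the absence and 4.28-fold in the presence of 8Br-cAMP. LMNA, for lamins A and C, went the other way by log2 0.51 and 0.58, short of 2-fold. SYNM, for synemin, a partner of vimentin and desmin, was 2.46-fold lower after knockdown with 8Br-cAMP and 1.46-fold higher without it. SYNC, for syncoilin, differed by -0.18 and -0.93. LMNB2, for lamin B2, read 677, 338, 440 and 150, and it was the 1 gene of the list that was 2-fold lower in both 8Br-cAMP comparisons. Its knockdown difference was log2 -0.62 without and -1.18 with 8Br-cAMP. In the presence of 8Br-cAMP, 4 of the 11 (DES, SYNM, LMNB1 and LMNB2) passed 2-fold lower after knockdown, against 9.48% of all genes. This list too was chosen with earlier results of these data known. None passed 2-fold higher, and DES was above the floor on 1 array only. The list's median knockdown difference was -0.11 without and -0.93 with 8Br-cAMP.

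Of 20 linker and desmosome genes with a probe set, 19 were compared and 0 were 2-fold lower or higher in both knockdown comparisons. The median was log2 0.00 without and 0.04 with 8Br-cAMP. The plakins that tie keratins and vimentin to junctions and to other filaments differed by 1.20, or 2.30-fold higher, and 0.55 for PPL (periplakin), by 0.74 and 0.22 for DSP (desmoplakin), by 0.28 and 0.08 for PLEC (plectin) and by 0.25 and 0.50 for DST (dystonin). EVPL (envoplakin) and EPPK1 (epiplakin) were at or near the floor. MACF1, which links actin to microtubules, differed by -0.29 and 0.41. The desmosomal cadherins DSG2 and DSC3 differed by -0.52 and 0.44 and by 0.48 and 1.27. PKP2, for the desmosomal plakophilin 2, read 2570, 2391, 1130 and 3202. It was 2.27-fold lower after knockdown without 8Br-cAMP, and its difference with it was log2 0.42. JUP, for plakoglobin, read 75.6, 115, 558 and 66.9, so that 1 array, siYT, set its knockdown difference of 2.88.

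**Figure D4:**
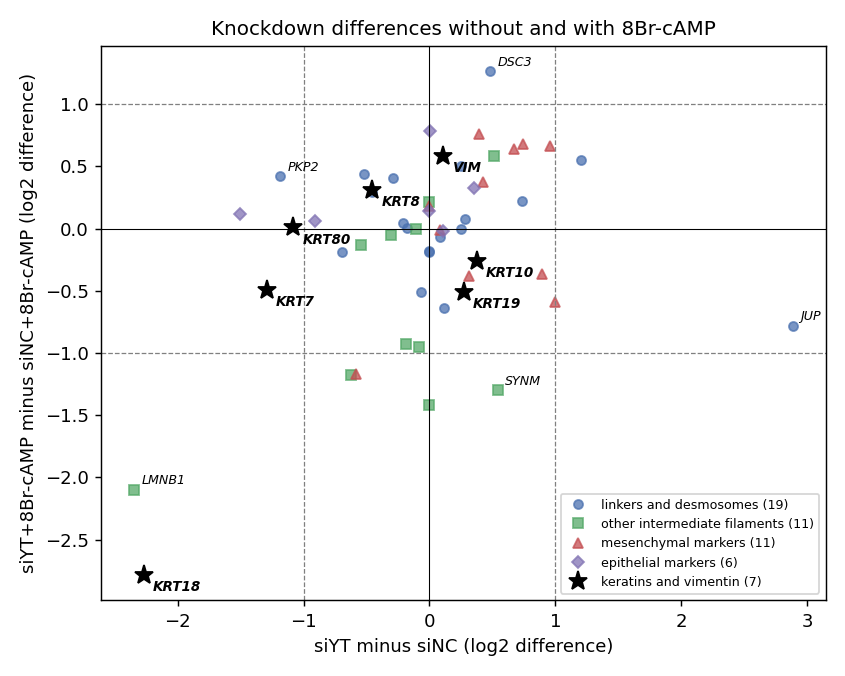
Knockdown differences (log2) without 8Br-cAMP on the x axis and with it on the y axis, for the 7 keratin and vimentin genes (stars) and the genes of 4 other lists that were above the floor on at least 1 array. Dashed lines mark 2-fold, and KRT18 (-2.27 and -2.78) and LMNB1 (-2.34 and -2.10) are the 2 points past 2-fold lower on both axes.

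The epithelial and mesenchymal marker lists gave 0 genes past 2-fold in both knockdown comparisons. Among 11 mesenchymal genes the median was log2 0.43 without and 0.19 with 8Br-cAMP. CDH2, for N-cadherin, differed by 0.67 and 0.64, FN1, for fibronectin, by 0.74 and 0.68, SPARC by 0.43 and 0.37, and MMP2 by 0.96 and 0.66, all short of 2-fold. S100A4 went the other way, by -0.58 without and at least 2.25-fold with 8Br-cAMP. The transcription factors SNAI2 (0.89 and -0.36), ZEB1 (0.31 and -0.38) and ZEB2 (just under 2-fold higher, and -0.59) had opposite signs without and with 8Br-cAMP. The brighter TWIST1 did not, and was higher in both, by 0.39 and 0.76. FOXC2 differed by 0.09 and -0.01, and SNAI1, near the floor, by 0.19 with 8Br-cAMP. The 6 epithelial genes compared had medians of 0.00 and 0.13. ELF3, an epithelial transcription factor, was lower without 8Br-cAMP (log2 -1.51) and differed by 0.12 with it. OCLN, for occludin of tight junctions, differed by -0.91 and 0.06, MUC1 by 0.36 and 0.33, and SPINT1, near the floor, by at least 0.78 with 8Br-cAMP. With 8Br-cAMP itself MUC1 was at least 2.06-fold lower in control cells and 2.11-fold lower after knockdown, as the 1 gene of the list past 2-fold in both.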

How the data were processed

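The deposited table gives a linear intensity for each probe set. The submitters' processing notes name RMA and Affymetrix Expression Console, and their versions are not given in the sources used here. RMA output is usually on a log scale, whereas these values ran from 0.081 to 147293 with a 2% trimmed mean of 500.1 on each array, so their background correction and summary remain unknown, and dim values are uncertain. Values below 62.6, the median of the table, were set to it, log2 was taken, and arrays were not normalized further. For each gene the probe set of highest mean log2 value stood for it, and the 14427 genes with a value over the floor somewhere were compared, at a threshold of 2-fold. The 1801 probe sets of several symbols and the 11777 without one were left out. The yardstick SD came from 7501 probe sets of 3019 genes above 4 times the floor. It does not hold variation between cultures. KRT19, being dim, lies outside it. The additive fit used limma 3.58.1 in R 4.3.3. The size rule and the fit were tested on simulated data. With 1 array a group, their number limits the precision.

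The members and gene lists were chosen with earlier results of these data known. Genes named were the members, the siRNA targets, list genes past 2-fold in both comparisons of a kind, up to 4 of the brightest of a list and the 3 genes most like KRT18 and VIM. The granulosa list served to check the cell type. Its genes CYP19A1, STAR and INHA, 2-fold higher in both 8Br-cAMP comparisons as FOXL2 also was, were not described. CYP19A1 was also higher in both knockdown comparisons, by 39.2-fold without and 3.78-fold with 8Br-cAMP. JUP, PKP2, DSP, PLEC, TWIST1, ZEB1 and the markers below the floor were named after their values were seen. PPL, EVPL, EPPK1, SNAI1, SNAI2, ZEB2, FOXC2, S100A4 and SPINT1 were also named outside these rules. Alternatives were no floor, a floor at the 75th percentile, the mean over probe sets, unshared probe sets, cyclic loess, 1.5-fold and the additive fit.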

Additional observations from a re-analysis of the deposited data

Results flagged for a closer look

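In 4 genes the difference had opposite signs with and without the other treatment, each from 1 pair of arrays, and whether the differences differ was not tested. KRT8 had a knockdown difference of log2 -0.45 without and 0.31 with 8Br-cAMP, and an 8Br-cAMP difference of -0.39 with control siRNA and 0.37 after knockdown. KRT10 had knockdown differences of 0.38 and -0.26 and 8Br-cAMP differences of 0.26 and -0.38. KRT80 had knockdown differences of -1.08 and 0.01. The latter was 0.02 times its yardstick SD, so that its sign cannot be told. KRT19 had knockdown differences of at least 0.27, with siNC below the floor, and -0.51. The difference between the knockdown differences was 0.76 for KRT8, -0.64 for KRT10, 1.09 for KRT80 and, as a bound, -0.78 for KRT19, against a yardstick SD of 0.60. The KRT10 differences lie within the yardstick SD, and KRT8 exceeds it, at -0.45 and -0.39, in the comparisons that leave out the siYT+8Br-cAMP array.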

How the results depend on the processing

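Of 124 differences of single genes recomputed under 5 settings, 111 stayed within 1 yardstick SD and 13 moved by more, and all 28 under cyclic loess stayed within it. Many of the 111 could not move, so their number does not measure stability. The floor settings change only KRT19, and averaging cannot change KRT8, KRT18 or KRT80, which have 1 probe set each. KRT19 and KRT80 keep their probe set when shared ones are dropped. For KRT18 only cyclic loess could change the value. Of the 13, 6 changed sign, 2 of them from a value past 2-fold, and another 4 changed sign within 1 SD. KRT7 by its unshared probe set changed sign in all 4 comparisons, to log2 0.64 from -1.29 and 0.29 from -0.49 for knockdown without and with 8Br-cAMP, and to -0.32 from 0.34 and -0.67 from 1.14 for 8Br-cAMP in control cells and after knockdown. VIM with the mean over probe sets changed sign for 8Br-cAMP, to -0.94 from 0.11 in control cells and -0.31 from 0.58 after knockdown. With unshared probe sets alone, which exist for 3 of the 7 genes and not for KRT18, 1 gene was 2-fold lower after knockdown without and 0 with 8Br-cAMP, and 1 was 2-fold higher with 8Br-cAMP after knockdown. The additive limma fit has 1 knockdown effect, averaged over 8Br-cAMP, and 1 effect of 8Br-cAMP, averaged over knockdown. At an adjusted p under 0.05, in place of 2-fold, it called 1 gene lower with knockdown and 0 higher with 8Br-cAMP. With the mean over probe sets, 2 genes in place of 3 were 2-fold lower after knockdown without 8Br-cAMP, as KRT7 gave log2 -0.08, and 0 genes were 2-fold higher with 8Br-cAMP in control cells and 1 after knockdown. The floor at the 75th percentile (388.7) left 0 higher with 8Br-cAMP in control cells. Without a floor 1 gene (KRT19) was higher after knockdown without 8Br-cAMP. At 1.5-fold, 1 gene was higher after knockdown with 8Br-cAMP and 2 were higher with 8Br-cAMP in control cells. Apart from the additive fit, the share of all genes was not taken under these settings. The counts therefore describe the members alone. The cause of the changes between settings was not tested. Without the siYT+8Br-cAMP array only knockdown without 8Br-cAMP and 8Br-cAMP with control siRNA can be compared, and their values are those given. No paired analysis was possible because each group holds 1 array. Without replicates, culture variation could not be measured.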
